A study of Homo sapiens with 10 samples.

Results

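N6-methyladenosine (m6A) peaks were followed over 10 genes of RNA splicing and nuclear speckles in 5 human colon cancer cell lines. The genes were SON, SRRM2, SREK1, NSRP1, PNISR, SNRNP35, LUC7L3, GPATCH2, GPATCH3 and GPATCH8. A peak was counted to a gene when its summit fell inside a fixed span of the hg19 genome around that gene. This gave 81 peaks of the 38106 in the 5 lists. They merged into 27 regions of the 22315 that all lists form on chromosomes 1 to 22, X and Y. The genes were chosen by the presence of peaks in these same lists, so counts of peaks over them are a description and no test was made on them.

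The lines were HCT116, HT29 and HCT15, labelled colorectum, and COLO320DM and COLO205, labelled colon. All are established lines grown in the same serum-containing medium, and the labels name no treatment. RNA was cut into fragments of about 100 nt, enriched with an anti-m6A antibody, and sequenced (MeRIP-seq), with 10% kept unenriched as input. Each line had 1 immunoprecipitation (IP) library and 1 input, so no spread between replicates exists and differences between lists compare single libraries.

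m6A is a methyl mark that nuclear writer enzymes put on adenosines of many mRNAs. It is known to be common in long internal exons and near stop codons, and reader proteins bound to it alter splicing, export and decay of the RNA. Nuclear speckles are bodies rich in splicing factors, many of which carry stretches of alternating arginine and serine (SR-related proteins). SON and SRRM2 form the core of speckles. SREK1, NSRP1 and PNISR are SR-related proteins, and the first of these regulates other SR proteins. SNRNP35 is a protein of the minor spliceosome, which removes a rare class of introns, and LUC7L3 is a U1-associated factor of 5′ splice site choice. The GPATCH proteins carry a glycine-rich G-patch, a domain known to bind and stimulate RNA helicases.

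The 10 spans took 21 peaks in HCT116 and 22 in COLO320DM, 18 in HT29 and 17 in COLO205, and 3 in HCT15. Whole lists held 917 peaks in HCT15 and 8832 to 9998 in the other 4 lines, called the long lists here. IP depth, recovered from the deposited values, was 1.38 to 2.99 M reads (M for mega) in the long lists. In HCT15 it was 5.02 M, and the caller weighted each HCT15 read by 0.322. HCT116 and COLO320DM had a peak in all 10 genes, HT29 and COLO205 in 9, lacking SRRM2, and HCT15 in 3. No list had a summit within 5 kb outside any span. The nearest one outside lay 6.12 kb beyond the PNISR span and had a fold of 5.48 in COLO320DM. The counted summit closest to a span end lay 329 nt inside the GPATCH3 span, in COLO320DM, with a fold of 3.50.

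Fold is the authors' ratio of reads at a summit to the local background, and it and the −log10 p are the authors' own values. Regions are lettered along the chromosome within each gene. The strongest peak of a list in a region is the one with the highest −log10 p. Intervals beside a fold are 95% Poisson intervals of the recovered IP reads and cover counting error of the IP only.

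**Figure D1:**
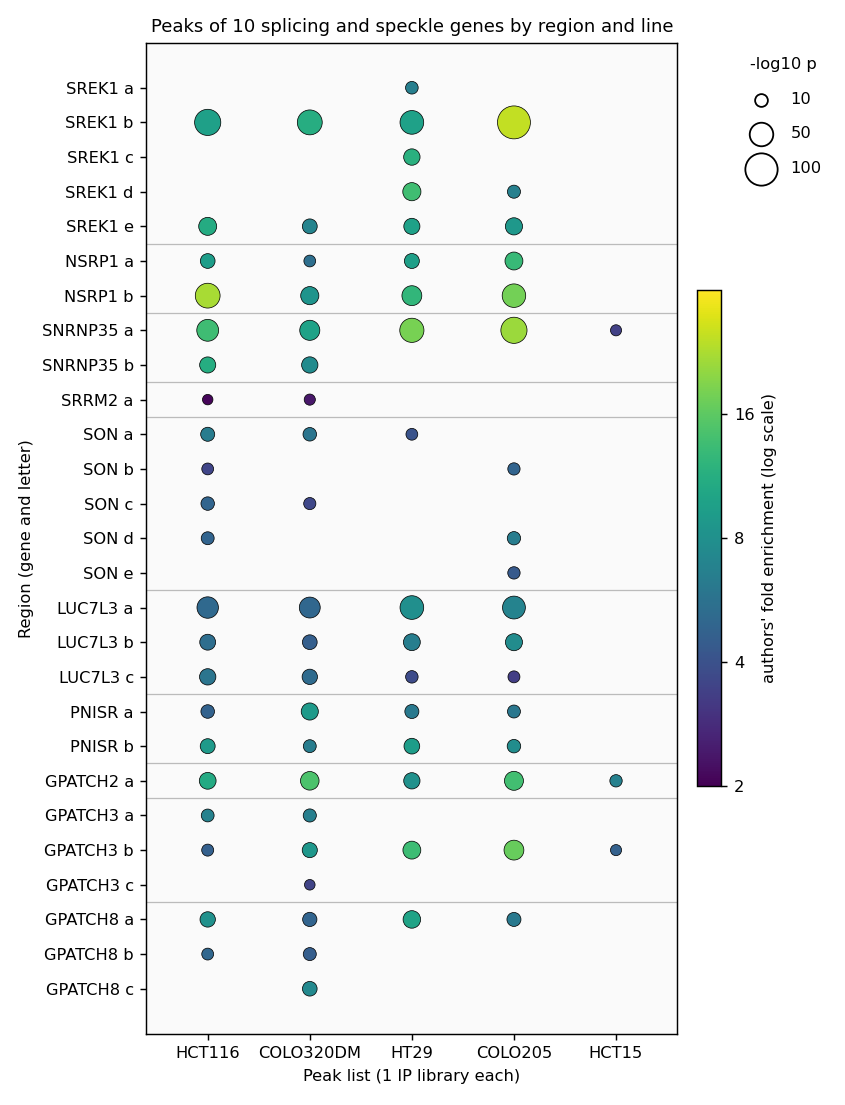
Each dot is the strongest peak of a list (columns) in a region of the 10 genes (rows, lettered along the chromosome), coloured by the authors' fold on a log scale and sized by −log10 p. A blank cell means that no peak was called. Of the 27 regions, 13 have a dot in each of the 4 long lists, SRRM2 and SON have none of these, and HCT15 has 3 dots.

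Sharing between lines was high in this set. Of the 27 regions, 13 were held by all 4 long lists, where the background over all regions was 6.87%. These 13 lay in 8 genes, and SON and SRRM2 had none. At the level of the gene, 9 of 10 had a peak in every long list, SON included, since its lists need not mark the same place. A region seen in 1 list only made up 5 of the 27, against 64.0% of all regions. The 3 in all 5 lists were SNRNP35 a, GPATCH2 a and GPATCH3 b, against 0.13% of all regions. Since genes with peaks were picked, these shares say nothing on splicing genes as a class.

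Peaks of these genes mostly lay over measurable input. A local background of at least 1 input fragment was found under 21 of 21 HCT116 peaks (58.0% of that list), 16 of 18 in HT29 (38.7%), 21 of 22 in COLO320DM (62.2%), 16 of 17 in COLO205 (51.5%) and 2 of 3 in HCT15 (20.1%). A fold of at least 4 was reached by 19 HCT116 peaks (70.4% of the list), 17 in HT29 (88.9%), 19 in COLO320DM (72.5%), 16 in COLO205 (88.2%) and 2 in HCT15 (95.7%). The median member peak ranked at the 85.0th percentile of its list by −log10 p in HCT116, the 92.1st in HT29, the 83.8th in COLO320DM and the 92.8th in COLO205. In HCT15 it was at the 6.32nd.

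SREK1, on chromosome 5, carried the site with the highest −log10 p of the set in HCT116, COLO320DM and COLO205, while SNRNP35 a was above it in HT29 (53.1 against 50.7). Region b, from 65466408 to 65466750, had summits over 97 IP reads in HCT116 and 75 in HT29, with 76 in COLO320DM and 92 in COLO205. The local input there was 15 fragments in HCT116 and 10 in HT29, with 9 in COLO320DM and 5 in COLO205. These raw IP counts were close together, but the IP depths were not. Per M IP reads, HCT116 had 70.4 and COLO320DM 51.6, while HT29 had 35.3 and COLO205 30.8. Local input per M was 6.70 and 3.95 for the first pair, against 3.23 and 0.924. Both IP and input thus differed between lines once depth was taken into account. The fold was 9.57 (7.78 to 11.7) in HCT116, 9.68 (7.64 to 12.1) in HT29, 11.3 (8.93 to 14.1) in COLO320DM and 24.7 (19.99 to 30.3) in COLO205. COLO205 thus stood apart from the other 3 in fold, on IP counting error alone. The ratio of IP to input per M reads was 33.3 in COLO205 and 10.5 in HCT116. With the counting error of IP and input together, COLO205 was 3.17 times HCT116, with an exact 95% interval of 1.04 to 11.6. It was 3.05 times HT29 (0.897 to 11.8) and 2.55 times COLO320DM (0.728 to 10.1), and both of these intervals held 1. The interval against HCT116 also held 1 when widened for 69 comparisons. HCT15 had no SREK1 peak.

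SREK1 e, from 65474521 to 65474730, was also in the 4 long lists. Its folds were 10.9 in HCT116 and 9.70 in HT29, with 6.97 in COLO320DM and 8.77 in COLO205, over 22 to 32 IP reads. All 4 intervals overlapped. HT29 held 3 further SREK1 regions, at folds of 6.53 (a), 11.7 (c) and 13.6 (d), with 10 to 14 IP reads each. COLO205 shared region d, from 65473326 to 65473449, at a fold of 6.65. Regions c and d lay over 0.293 and 0.15 input fragments in HT29, so their high folds rest on almost no measured input.

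NSRP1, on chromosome 17, had the broadest region. NSRP1 b ran from 28511749 to 28512734, with single peaks of 913 nt in HCT116, 941 nt in HT29 and 986 nt in COLO205. In COLO320DM the same stretch was called as 2 peaks, of 509 and 292 nt. The fold of the strongest peak was 22.3 (16.4 to 29.8) in HCT116, 12.4 (8.85 to 17.0) in HT29, 8.40 (6.06 to 11.4) in COLO320DM and 17.7 (13.1 to 23.5) in COLO205. The other COLO320DM peak had the higher fold, 11.1 (7.56 to 15.8), over 29 reads and 2.63 input fragments. With that peak in its place, COLO320DM still lay below HCT116 but its interval overlapped that of COLO205. IP reads at the strongest summits were 44, 37, 40 and 46 in the same order. The lines thus had nearly equal reads, and input ran from 1.65 fragments in HCT116 to 6 in COLO320DM. At NSRP1 a, from 28506121 to 28506299, the folds were 9.28, 9.49, 5.47 and 12.9 over 14, 15, 8 and 13 reads, with overlapping intervals. The input there was 1 fragment in HCT116, HT29 and COLO320DM and 0.15 in COLO205, so these folds rest on little measured input.

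PNISR, on chromosome 6, had 2 regions, both in the 4 long lists and 399 nt apart. PNISR a, from 99848663 to 99848901, had folds of 4.72 in HCT116 and 6.15 in HT29, with 8.92 in COLO320DM and 6.02 in COLO205, over 27, 22, 31 and 15 IP reads. PNISR b, from 99849301 to 99849484, had folds of 8.93, 9.28, 6.42 and 7.73 in that order, over 17, 21, 13 and 11 reads. COLO320DM was thus highest at a and lowest at b, but within each region every pair of intervals overlapped.

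SNRNP35, on chromosome 12, was one of 3 genes with a peak in every list. SNRNP35 a, from 123950452 to 123950889, had a fold of 13.6 (10.01 to 18.01) in HCT116, 18.2 (13.6 to 23.9) in HT29, 9.83 (7.28 to 13.01) in COLO320DM and 21.1 (15.97 to 27.3) in COLO205. In HCT15 the fold was 3.42 (2.59 to 4.44), below each of the others on IP counting error alone. With input error included, the intervals of the ratio to HCT15 held 1 for HCT116 (0.816 to 26.5) and COLO320DM (0.590 to 13.7). That for COLO205 (1.32 to 59.0) did not, until widened for the 69 comparisons. HT29 was not compared in this way. IP reads were 46, 49, 47 and 55 in the long lists and 50 unweighted reads in HCT15. Per M IP reads this was 33.4, 23.1, 31.9 and 18.4, against 9.97 in HCT15. The HCT15 input at the site was 2.48 fragments per M, inside the 0.554 to 2.64 of the other lines.

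SNRNP35 b, from 123956920 to 123957195, was called in HCT116 with a fold of 11.1 and in COLO320DM with 7.56. In RefSeq's GRCh38.p14 annotation SNRNP35 overlaps RILPL1, and GPATCH3 overlaps NUDC. Other genes annotated over members were PNISR-AS1 at PNISR, MIR423 and MIR3184 at NSRP1, MIR6501 at SON and RN7SL258P at GPATCH8. The lists carry no strand, so the gene behind a peak of these spans cannot be told from them.

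LUC7L3, on chromosome 17, had all of its 3 regions in every long list, as did NSRP1 and PNISR with 2 of 2 and GPATCH2 with its single region. LUC7L3 a, from 48823079 to 48823321, had 102 IP reads in HCT116 and 88 in HT29, with 98 in COLO320DM and 90 in COLO205. These were the highest counts of the set in the first 3 of these lists, and in COLO205 SREK1 b was above it with 92. It also had much input, 31, 15, 29 and 22 fragments, so its folds were moderate at 5.13, 7.89, 5.01 and 6.92. The −log10 p of 38.0 to 50.6 placed it above the 99th percentile of each list, while its fold was at the 47.0th to 81.0th percentile. HT29 lay above HCT116 and COLO320DM in fold on IP counting error alone. LUC7L3 b, from 48823875 to 48824032, had 41, 41, 39 and 36 reads and folds of 5.40, 6.48, 4.57 and 7.61. LUC7L3 c, from 48827836 to 48827987, had 41, 26, 38 and 26 reads and folds of 5.87, 3.77, 5.22 and 3.30. All intervals overlapped within b and within c.

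SON, on chromosome 21, had 10 peaks in 5 regions, none held by all 4 long lists. HCT116 had 4 of the regions, COLO205 3, COLO320DM 2 and HT29 1. SON a, from 34921826 to 34921948, was in 3 lists, with folds of 6.35 in HCT116, 4.07 in HT29 and 5.85 in COLO320DM over 21, 17 and 20 reads. Region b was shared by HCT116 (3.52) and COLO205 (4.82), c by HCT116 (4.90) and COLO320DM (3.67), and d by HCT116 (4.83) and COLO205 (6.40). Region e was called in COLO205 alone, at 4.32. All 10 folds lay between 3.52 and 6.40, and each peak had 16 to 25 reads. The 5 regions fell within 5701 nt, 15.8% of the span. SON is known for a very long internal exon, and whether the regions lie in it was not determined here.

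SRRM2, on chromosome 16, had the lowest folds of the set. Its one region, from 2811589 to 2811756, had a fold of 2.07 (1.45 to 2.89) in HCT116 and 2.40 (1.68 to 3.33) in COLO320DM. IP reads were 33 and 34, beside 44 and 40 at NSRP1 b in the same lists. They lay over 25 and 21 input fragments, the highest input of any gene but LUC7L3. The HCT116 summit was the last base of its peak. Its −log10 p, 4.54, was close to 4.52, the lowest of that list. SRRM2 thus had much input RNA and little enrichment at the called place.

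GPATCH2, on chromosome 1, had a single region in a span of 205 kb. GPATCH2 a, from 217793165 to 217793636, was held by every list, with folds of 10.8 in HCT116 and 8.02 in HT29, with 14.6 in COLO320DM, 13.8 in COLO205 and 6.73 in HCT15. IP reads were 23, 29, 23 and 28 in the long lists and 24 unweighted reads in HCT15. All 5 intervals overlapped. The HCT15 peak lay over 0.296 input fragments, so its fold rests on almost no measured input. HT29 had a second peak there, from 217793532 to 217793635, inside the stretch that HCT116 called as 1 peak.

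GPATCH3, also on chromosome 1, had its shared site at GPATCH3 b, from 27223811 to 27224022. The fold was 4.62 (2.71 to 7.43) in HCT116, 13.4 (8.6 to 19.9) in HT29, 4.68 (3.23 to 6.62) in HCT15, 8.72 (5.42 to 13.4) in COLO320DM and 16.8 (11.1 to 24.4) in COLO205. HCT116 and HCT15 were thus both below HT29 and COLO205 on IP counting error alone. Input was 4 fragments in HCT116 and 1 to 2 in the others, so 1 or 2 fragments decide these folds. GPATCH3 a, from 27220837 to 27220913, was in HCT116 (6.81) and COLO320DM (6.54). GPATCH3 c was in COLO320DM alone, with 3 IP reads and a fold of 3.50 (1.42 to 8.56).

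GPATCH8, on chromosome 17, had 3 regions within 1343 nt. GPATCH8 a, from 42477134 to 42477461, was in the 4 long lists, with folds of 8.04 in HCT116, 9.97 (6.83 to 14.1) in HT29, 4.84 (3.36 to 6.77) in COLO320DM and 6.12 in COLO205. HT29 and COLO320DM were apart on IP counting error. Region b was called in HCT116 (4.97) and COLO320DM (4.52), and region c in COLO320DM alone (7.37, 21 reads).

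Position along the spans was read in the direction of transcription, with strand from RefSeq for 9 of the genes (SNRNP35 was not matched). Span ends are those of the rule, not annotated gene ends. Peaks lay late in the span in 5 genes. The summits were at 88.99% to 98.1% of the span in NSRP1, at 94.1% to 95.1% in GPATCH8, at 77.7% to 91.2% in LUC7L3, at 84.9% to 86.95% in PNISR and at 64.8% to 86.6% in SREK1. They lay early in GPATCH2, at 5.56% to 5.70%, and in SON, at 21.9% to 37.4%. SRRM2 had its site at 46.0% to 46.4%, and the GPATCH3 summits ran from 2.98% to 55.9%.

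**Figure D2:**
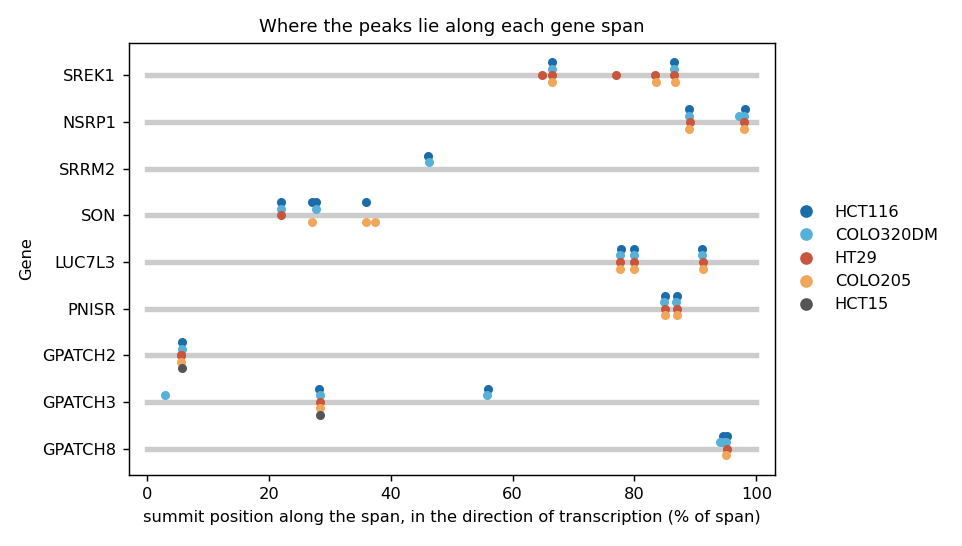
Summit of every peak as a percentage of its gene span in the direction of transcription (horizontal axis), for 9 genes (rows), coloured by line. In GPATCH8, PNISR, LUC7L3, NSRP1 and SREK1 the points sit beyond 64.8% of the span, and those of GPATCH2 and SON at up to 37.4%.

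Where a region was shared, the strongest summits lay close together, which the merging of overlapping peaks by itself favours. The second COLO320DM summit of NSRP1 b, at 28511929, was left out here. Over the 13 regions of the 4 long lists, the strongest summits of those lists spanned 2 to 64 nt, with a median of 32 nt. The median over all 1532 such regions was 37 nt. A span of at most 50 nt was found in 12 of the 13 and in 60.4% of all. At LUC7L3 b the summits were 48823990 in HCT116, 48823991 in HT29 and 48823989 in COLO320DM and COLO205. At SREK1 b they were 65466580 in HCT116 and HT29, 65466584 in COLO320DM and 65466597 in COLO205. GPATCH3 b kept within 9 nt with HCT15 included. The widest span, 64 nt, was that of SNRNP35 a, where the COLO205 summit lay at 123950700 and the HCT116 summit at 123950764.

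**Figure D3:**
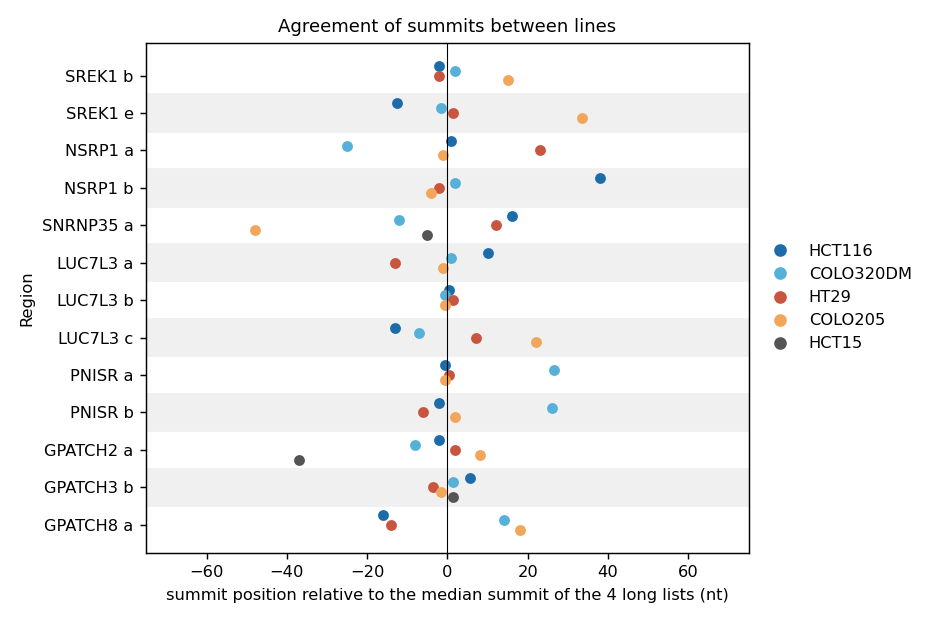
Position of the strongest summit of each list relative to the median summit of the 4 long lists, in nt (horizontal axis), for the 13 regions that these lists share (rows), coloured by line. All points lie within the fragment length of about 100 nt, and those of LUC7L3 b span 2 nt.

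Differences in fold between lines were weighed against counting error. Within the 22 regions held by at least 2 lists, 101 pairs of lists could be compared, and in 18 pairs the intervals of the fold did not overlap. With the peak of the highest fold in place of the strongest, 17 of the 101 were apart. The 18 pairs fell in SREK1 b, NSRP1 b, SNRNP35 a, LUC7L3 a, GPATCH3 b and GPATCH8 a. Such intervals leave out the error of the input, which was often 1 to 5 fragments. For 69 pairs the input was a whole number of fragments in both lists and an exact binomial interval of the IP to input ratio could be formed. Of these 69, 12 had fold intervals apart on IP error alone and 0 once the input was included. The rest of the 18 pairs, such as GPATCH8 a in HT29 against COLO320DM, were not among the 69. Their differences were not weighed against input error. Overlap of 2 separate intervals is a strict measure, so an exact interval was also formed for the ratio between the lists of each pair. It excluded 1 in 2 of the 69 pairs, SREK1 b in COLO205 against HCT116 and SNRNP35 a in COLO205 against HCT15, at 8.26 times (1.32 to 59.0). With the intervals widened for the 69 comparisons, 0 pairs excluded 1. Overlapping intervals do not show that the lines are equal. Pairs at the other shared regions were not counted, so whether these genes differ between lines more than other regions was not tested.

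**Figure D4:**
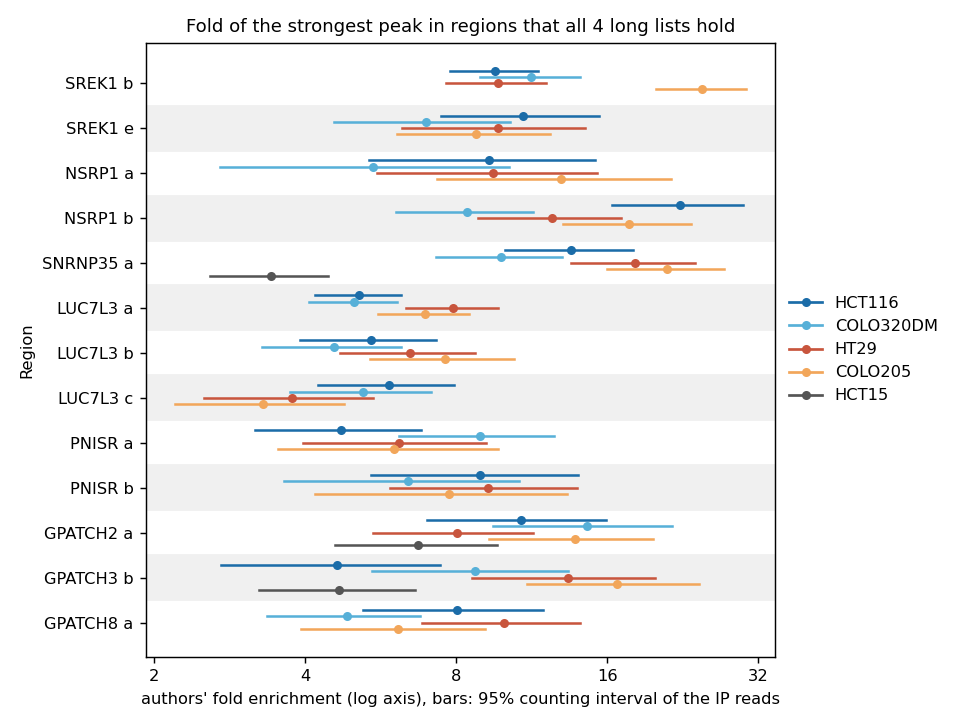
Authors' fold (horizontal log axis) of the strongest peak of each list in the 13 regions that the 4 long lists share, coloured by line. Bars are 95% Poisson intervals of the IP reads alone. At SREK1 b COLO205 stands at 24.7 beside 9.57 to 11.3, and at SNRNP35 a HCT15 stands at 3.42 beside 9.83 to 21.1.

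IP reads at the shared regions were alike between lists despite unlike depths. Over the 13 regions the median was 30 reads in HCT116 and 29 in HT29, with 32 in COLO320DM and 28 in COLO205. Over all 1532 regions of the 4 long lists it was 22, 20, 24 and 18. Per M IP reads, the medians of the members were 21.8 in HCT116 and 13.7 in HT29, with 21.7 in COLO320DM and 9.37 in COLO205. Those of all shared regions were 15.96, 9.42, 16.3 and 6.02. COLO205 was lowest in both and HT29 next to lowest, while HCT116 and COLO320DM, close to each other, changed places. Among 89 pairs of long lists at the genes' regions, the reads per M were apart in 21, and COLO205 was the lower list in 16 of these. With each list's reads divided by its median over the 1532 regions, 1 of the 89 pairs was apart. That was SREK1 b, at 5.11 times the median in COLO205 (4.12 to 6.27) and 3.17 times in COLO320DM (2.49 to 3.96). Input abundance of the RNA was not corrected for in this comparison, and pairs at the other shared regions were not counted.

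**Figure D5:**
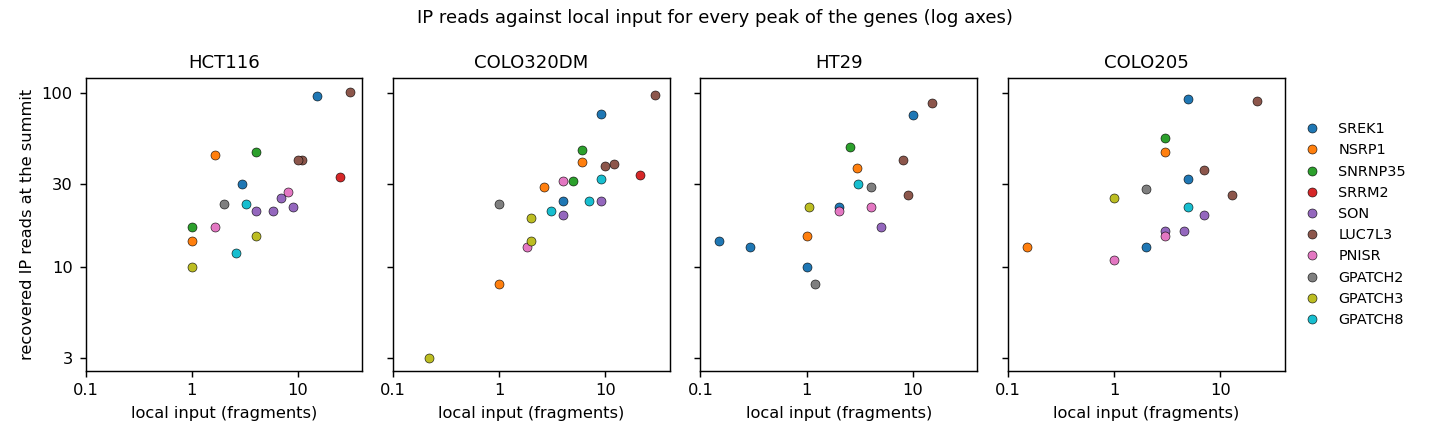
Recovered IP reads at the summit (vertical log axis) against local input in fragments (horizontal log axis) for every peak of the 10 genes in the 4 long lists (panels), coloured by gene. LUC7L3 lies at the right with up to 31 fragments, SRRM2 beside it with 33 and 34 reads, and SREK1 b reaches 75 to 97 reads over 5 to 15 fragments.

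Regions missing from a list were set against depth. The 14 regions not in all 4 long lists gave 32 combinations of a region and a long list without it. The strongest peak of each region was scaled to the depth of the list that lacked it, with reads and background in proportion. In 29 of 32 the expected count would have passed the lowest −log10 p of that list, 4.48 to 4.56. The exceptions were SON b and SON e in COLO320DM and GPATCH3 c in HCT116. Since reads at shared regions did not follow depth, the peaks were also scaled by each list's median reads and background over the 1532 shared regions. Again 29 passed, but the exceptions were then GPATCH3 c in HCT116, HT29 and COLO205, and 27 of 32 passed both ways. SRRM2, from the COLO320DM peak, would have reached a −log10 p of 8.18 in HT29 and 11.01 in COLO205 by depth, and 5.48 and 9.18 by the levels at shared regions. SON c, from the HCT116 peak, would have reached 17.0 in HT29 and 23.7 in COLO205 by depth, and 8.74 and 12.1 by those levels. The source was the strongest list of each region, which makes these values high. They are expected means without counting error, and missing regions of other genes were not projected. Input at the missing places is not known from the lists, so less RNA and less methylation cannot be told apart, and no cause was tested.

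Some regions were held by exactly 2 lists. HCT116 and COLO320DM alone shared 5 of the 27 regions, SNRNP35 b, SRRM2 a, SON c, GPATCH3 a and GPATCH8 b, against 4.7% of all regions. HT29 and COLO205 alone shared 1, SREK1 d, against 5.94%. HCT116 and COLO205 alone shared 2, SON b and SON d, against 2.31%. None was shared by HCT116 and HT29 alone (1.57% of all regions), by HT29 and COLO320DM alone (0.946%) or by COLO320DM and COLO205 alone (1.9%). Of the 5 regions in a single list, SREK1 a and c were in HT29, GPATCH3 c and GPATCH8 c in COLO320DM, and SON e in COLO205.

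The HCT15 list was short as a whole, with 905 peaks on the chromosomes used for merging, beside the 22315 regions that all lists form. Most regions of all lists thus had no HCT15 peak, and its absence was not particular to these genes. HCT15 lacked 24 of the 27 regions. At the depth the caller used for it, 1.61 M reads, 21 of these would have passed its lowest −log10 p, 5.59, at the rate of the strongest other list. SREK1 b would have reached 56.5 and LUC7L3 a 38.1. Regions of other genes were not projected, so whether this share is unusual was not tested. Where HCT15 did have a peak its reads per M were low, 9.97 at SNRNP35 a beside 18.4 to 33.4, 4.79 at GPATCH2 a beside 9.37 to 16.7, and 5.18 at GPATCH3 b beside 8.37 to 12.9. The identity of the HCT15 libraries was not tested.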

How the data were processed

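The labels describe 10 samples, of which the 5 IP samples have peak lists. Per the submitters' processing notes, cutadapt, FastQC, BWA, MACS2 and hg19 were used, with no versions or parameters. The authors' deposited lists give each peak a fold (a ratio to local background), a −log10 p and −log10 q, and a score that follows −log10 q. Peaks were called per library. Positions are hg19, counted from 1.

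Reads and background were recovered from fold and −log10 p with the caller's Poisson model and a pseudocount of 1. All peaks were met within 0.01. That the control is the input of the same line is an assumption, stated in no source used here. Depth assumes a genome of 2.7 Gb and the shortest peak, 73 to 75 nt, as fragment length. An input fragment is the background divided by the weight of 1 control fragment. The recovery of reads and background was tested on simulated peaks with the read weight given. Their backgrounds were lower than those at LUC7L3 a and SRRM2 a, and than that at SREK1 b in HCT116. The estimates of read weights, input fragment weights and depths were not tested. Peaks overlapping by at least 1 nt were merged, on chromosomes 1 to 22, X and Y.

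The members, lists and alternatives were chosen with earlier results of these data known. Every gene was named, with its strongest region and each region in at least 4 lists, and others by value. With 1 library per line no test was made. Intervals are exact 95% Poisson or binomial (Clopper-Pearson), or exact conditional ones for a ratio between lists, and cover counting error only. No hg19 genome or annotation was used here, so exons, motifs, sequences under peaks, and the planned lists of other splicing genes and epithelial markers were not analysed. Strand and overlapping genes came from RefSeq, GRCh38.p14. Computation used scipy 1.17.1, pandas 2.3.3 and numpy 2.4.6 under Python 3.11.15, and plots matplotlib 3.10.9.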

Additional observations from a re-analysis of the deposited data

How the results depend on the processing

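With a −log10 q of at least 5 the genes kept 0 HCT15 peaks, while the other 4 counts of peaks, 13 regions in all 4 long lists and 9 genes with a peak in each moved by less than 1.5 times. With each list limited to its 905 strongest peaks, HCT116 had 9 peaks of the genes, HT29 11, COLO320DM 8 and COLO205 9, and 5 regions and 5 genes were in all 4 long lists. Requiring all 5 lists left 3 regions and 3 genes. A fold of at least 4, at least 5 IP reads, any overlap with the span, spans widened by 5 kb, reciprocal overlap of 50%, summits within 100 nt, and leaving out each long list changed no count by more than 1.5 times. The next 4 alternatives were chosen after seeing the data. The pairs with fold intervals apart fell from 12 to 0 of 69 with input error included, and 2 had an interval of the ratio between lists that excluded 1. With the peak of the highest fold, 17 pairs of 101 were apart in place of 18. Missing combinations passed in 29 of 32 by depth and in 29 by levels at shared regions, 27 of them in both. With a pseudocount of 0, the fold of each gene's leading peaks became 1.03 to 3.88 times as high (median 1.43, 41 values), and 20 left their counting interval. Ranking by −log10 p instead of fold moved 10 of the 41 by 10 or more percentile points. Input of 1 to 5 fragments under many summits limits the folds.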
